A study of Homo sapiens with 5 samples.

Results

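The HOX genes were examined in mRNA-seq libraries of IMR-90, a widely distributed strain of normal human lung fibroblasts with a finite life span in culture. The members are the rows of the deposited table whose symbol is HOX, a cluster letter from A to D and a number from 1 to 13, with antisense names left out. The rule gave 39 protein-coding genes of 26364 listed names, 11 in HOXA on chromosome 7, 10 in HOXB on chromosome 17, 9 in HOXC on chromosome 12 and 9 in HOXD on chromosome 2. The rule uses no measured value, but the members were chosen with earlier results of these data known. All cells were IMR-90 cells taken 24 hr after siRNA transfection. The 2 Ctr-KD libraries (Ctr-KD 1 and 2) came from cells given the control siRNA, which the study lists as aimed at a luciferase. The 3 NSD2-KD libraries came from cells given NSD2-1, NSD2-2 or NSD2-3 siRNA, so siRNA and replicate cannot be told apart within NSD2-KD cells. All libraries are of this single strain of cells. The NSD2-KD libraries came from separate transfections. The study's methods call the Ctr-KD libraries biological replicates, but nothing says that they came from separate cultures, so the spread between them, on which the p-values also rest, may be technical.

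HOX genes encode homeodomain transcription factors that give cells a position along the body axis. Genes of a cluster lie in the order of their numbers, and genes with the same number in different clusters are paralogues. Low numbers are used nearer the head and high numbers nearer the tail. Adult and fetal fibroblasts in culture keep a HOX pattern that reflects where they were taken from, often called a HOX code. HOXA5 and HOXB5 are known from lung development, where they act in the mesenchyme. NSD2 is a histone methyltransferase of lysine 36 on histone H3, and the comparison asks whether the HOX pattern of these fibroblasts shifted when NSD2 was depleted.

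The libraries held between 2473691 and 2845063 reads on genes, so that 3 reads, the floor used here, were worth 2.76 to 3.28 normalized counts. Normalized counts are reads on a gene that the authors divided by a size factor of each library. NSD2 itself, listed as WHSC1, had 463 and 443 normalized counts in the Ctr-KD libraries and 90.2, 81.9 and 87.9 in the NSD2-KD libraries, 18.1% to 19.9% of the Ctr-KD mean. All 10 fibroblast markers were high in every library, from 352 normalized counts (LUM) upward. Of 8 epithelial markers, KRT5, SFTPC and NKX2-1 were at 0, EPCAM, CDH1 and KRT19 did not pass 2.86, and KRT8 and KRT18 lay between 64.8 and 154. The endothelial markers PECAM1 and CDH5 and the immune markers PTPRC and CD3E were at 0, while CD68, which fibroblasts can also express, lay between 60.5 and 103. Of the muscle markers, MYH11 lay between 14.4 and 22.1 and DES did not pass 1.03. Ctr-KD 1 and 2 were nearly as close as repeated sampling of reads would make them, with a chi-square to degrees of freedom ratio of 1.05, while all other pairs gave 3.87 to 5.29.

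In Ctr-KD cells the HOX code was mainly a HOXB code. Of their 1111 HOX reads, 978 (88.0%) fell on HOXB, 88 (7.92%) on HOXA, 45 (4.05%) on HOXC and none on HOXD. Over all 5 libraries, reads were found for 22 of the 39 genes, and 17 had none. With a mean of at least 10 normalized counts in Ctr-KD cells taken as expressed, 8 genes were expressed, HOXB2 to HOXB7 without a gap, HOXA3 and HOXA5. A minimum of 50 left 3 genes, HOXB2, HOXB3 and HOXB5, while asking for more than 3 reads in both Ctr-KD libraries gave 12, with HOXA4, HOXB8, HOXC6 and HOXC8 added. The end of the HOXB block at HOXB7 or HOXB8 thus depends on the minimum. The level of a gene was compared with that of another only per kilobase of its annotated exons.

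**Figure D1:**
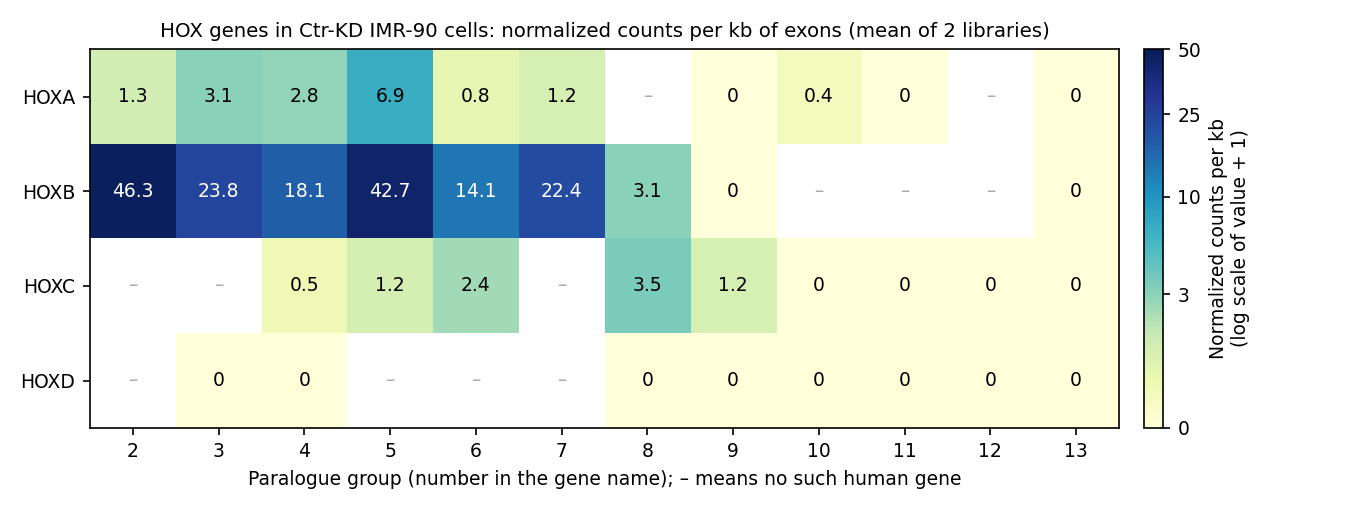
Normalized counts per kilobase of exons in Ctr-KD cells (mean of 2 libraries, colour on a log scale of value + 1) for HOX genes of paralogue groups 2 to 13, with clusters in rows and groups in columns. The row of HOXB is darkest from group 2 to group 7, with HOXB2 at 46.3 and HOXB5 at 42.7, while each HOXD gene shown is at 0.

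Within HOXB, levels changed along the cluster. HOXB1, at the end of the cluster with the lowest numbers, had no read in any library, and its neighbour HOXB2, a regulator of hindbrain segments, had the highest level of all HOX genes, 47.7 and 44.8 normalized counts per kilobase in Ctr-KD 1 and 2. HOXB5 followed at 38.9 and 46.5, a range that overlaps that of HOXB2. HOXB3 was at 23.5 and 24.1, HOXB7 at 22.6 and 22.3, HOXB4, known for its use in blood stem cells, at 17.1 and 19.0, and HOXB6 at 12.1 and 16.2. These 4 ranges did not overlap, but they rest on 2 libraries each and leave out counting error. HOXB4, HOXB6 and HOXB7 had 33 to 41 reads in each Ctr-KD library, so the order of the 4 genes is not settled. At the other end HOXB8 was at 3.57 and 2.57, and HOXB9 and HOXB13 had no read. The level thus fell between HOXB7 and HOXB8. When length was taken from the longest coding transcript, the first 4 places stayed as they were, HOXB2 (67.6), HOXB5 (42.7), HOXB3 (42.0) and HOXB7 (25.04), and HOXB6 (18.8) and HOXB4 (18.1) changed places.

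The HOXA cluster was read at a much lower level, and again at its low numbers. HOXA5, a regulator of lung morphogenesis, was highest in it with 7.75 and 5.98 normalized counts per kilobase in Ctr-KD 1 and 2. HOXA3, a gene of the pharyngeal region, was at 3.10 in both and HOXA4 at 3.31 and 2.38. HOXA2 and HOXA7 lay between 0.853 and 1.58. HOXA6, HOXA9 and HOXA10 had at most 2 reads in any library, and HOXA11 and HOXA13 had none. The ranges of HOXA3 and HOXA4 overlapped, and that of HOXA5 lay above both. Exons of other genes share 19.8% of the exon bases of HOXA3, 47.8% of those of HOXA4 and 62.5% of those of HOXA7. Reads of these 3 genes cannot all be assigned with certainty, so their levels are less sure than that of HOXA5, which shares none.

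In HOXC the reads lay mainly at its lower numbers, from HOXC4 to HOXC8. HOXC8, a gene of the trunk, was at 1.97 and 5.11 normalized counts per kilobase in Ctr-KD 1 and 2, and its neighbour HOXC6 at 2.48 and 2.38. HOXC5 was at 1.18 and 1.28. HOXC4 and HOXC9 had at most 6 and 3 reads in any library, HOXC10 had 1 read in all, and HOXC11, HOXC12 and HOXC13 had none. The range of HOXC8 overlapped that of HOXC6, and that of HOXC5 lay below both, on 2 reads in each library. Of the exon bases of HOXC5, 67.3% are shared with exons of other genes, and of those of HOXC6, 16.1%. The place of HOXC5 below the other genes is therefore not settled.

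HOXD was not detected. All 9 of its genes, from HOXD1 to HOXD13, were at 0 in all 5 libraries, which allows each a share of up to 0.000105% to 0.000121% of the reads on genes, by the floor of 3 reads and for counting error alone. The genes on either side of HOXD were read. LNPK, listed as KIAA1715, had 179 ± 21.0 (SD, n = 2) normalized counts in Ctr-KD cells and MTX2 had 50.1 ± 6.22 (SD, n = 2). EVX2, a homeobox gene at the edge of the cluster, and the cluster's noncoding genes HAGLR and HAGLROS were at 0. Of the genes with the high numbers 11 to 13 in any cluster, which are used in the posterior trunk and limbs, none had a read in any library.

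Paralogues share short stretches of sequence. Across the 39 genes, the longest run of bases that an exon shared with an exon of a HOX gene in another cluster was between 17 and 62 bases, with a median of 27, and none reached the 150 bases of a read. For HOXB6, the gene on which the comparison below turns, it was a run of 29 bases in the homeobox shared with HOXA7, at chr17:46673956-46673984 and chr7:27194775-27194803 of GRCh37 (minus strand in both, 5′ to 3′, no part in capitals).

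HOXB6 and HOXA7: taccagacgctggagctggagaaggagtt

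Between NSD2-KD and Ctr-KD cells, 1 HOX gene changed. HOXB6, the paralogue group 6 member of HOXB, rose 3.04-fold in NSD2-KD cells, with each siRNA. The other 8 HOX genes that could be tested did not pass the threshold, and no HOX gene that was at 0 in Ctr-KD cells had more than 1 read in an NSD2-KD library. Of 39 members, 9 had a mean of at least 10 normalized counts over the 5 libraries and were tested with limma together with all other genes (11313 in all, adjusted p by the Benjamini-Hochberg method). HOXC8 reached that mean only through the NSD2-3 library. Of the 9, 1 passed at an adjusted p under 0.05, against 10 of all tested genes (0.0884%), of which 4 (0.0354%) were higher and 6 (0.053%) lower in NSD2-KD cells. At an unadjusted p under 0.05, 1 of the 9 passed, against 9.18% of all tested genes. Among the 9 genes, 6 had a log2 difference above 0, which were 1 of 2 in HOXA, 4 of 6 in HOXB and HOXC8. Of all tested genes, 48.5% were above 0. HOXC8 reached the minimum only because it was high in an NSD2-KD library, so its direction is not read as a result. The median log2 difference was 0.14 over the 9 HOX genes, HOXC8 included, and -0.0089 over all tested genes. All log2 differences are on the scale of log2(normalized count + 1), which understates the change of low genes.

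**Figure D2:**
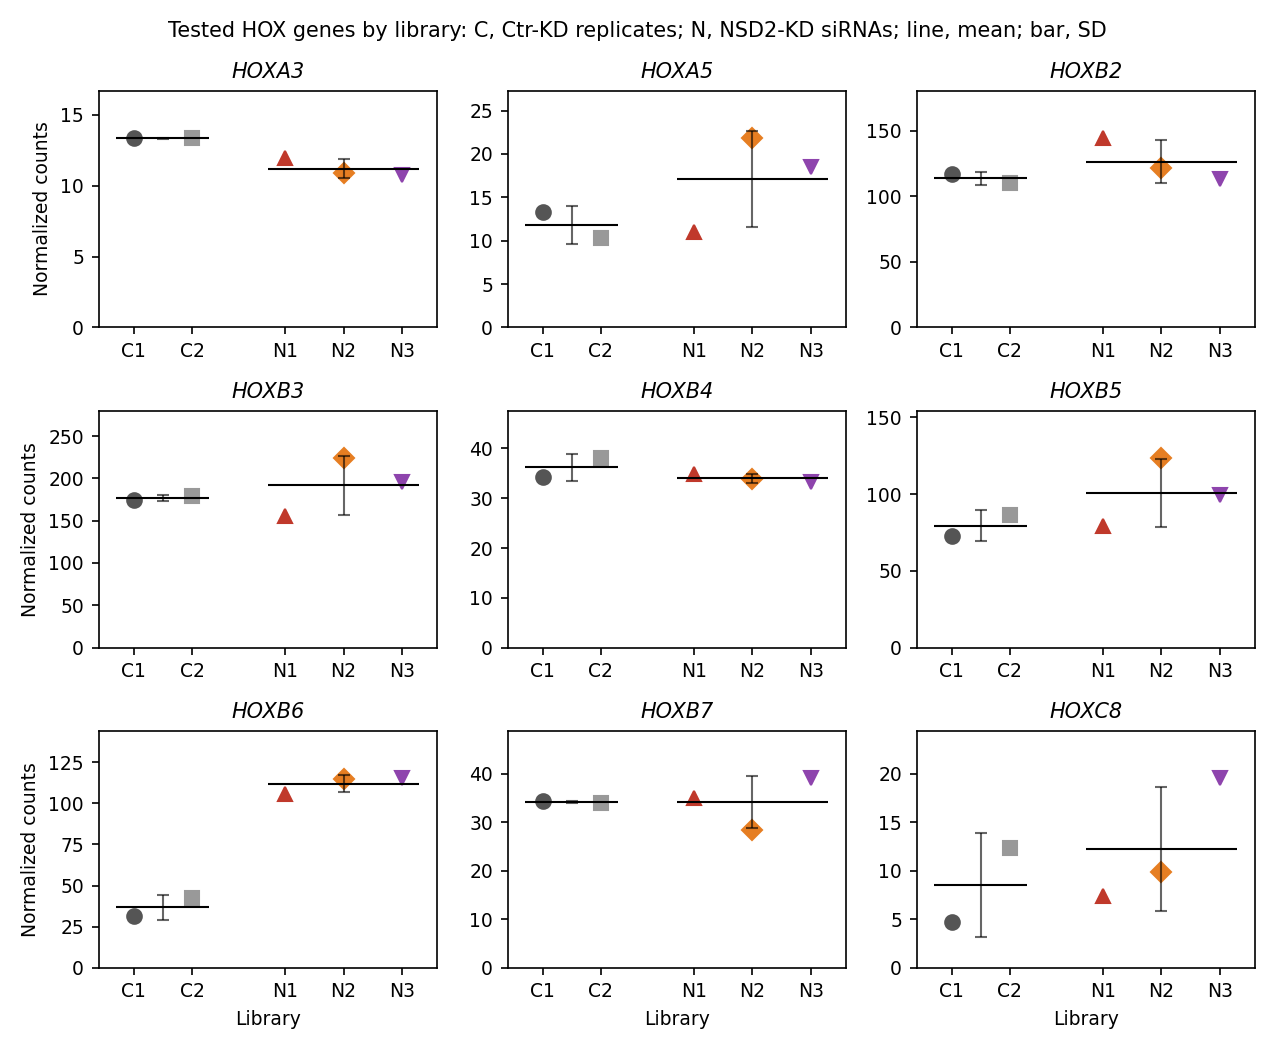
Normalized counts of the 9 tested HOX genes in each library, with Ctr-KD 1 and 2 at the left and the NSD2-1, NSD2-2 and NSD2-3 libraries at the right of each panel, the group mean as a line and the SD as a bar. HOXB6 is the panel in which the 3 NSD2-KD libraries, at 106 to 115, lie far above the Ctr-KD libraries, at 31.4 and 42.2.

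HOXB6 lies on the minus strand of chromosome 17 of GRCh37 from 46673113 to 46682354. It had 31.4 and 42.2 normalized counts in the Ctr-KD libraries (36.8 ± 7.60, SD, n = 2), from 33 and 41 reads. It had 106 with NSD2-1, 115 with NSD2-2 and 115 with NSD2-3 (111.9 ± 5.27, SD, n = 3), from 115, 105 and 118 reads. The groups did not overlap, as was the case with the NSD2-KD libraries above in 13.8% of all tested genes. HOXB6 differed by 1.59 on the log2 scale (limma, standard error 0.18, adjusted p = 0.0322), and the siRNAs lay close together, at 1.51, 1.63 and 1.63 above the Ctr-KD mean. The call was also made by edgeR (adjusted p = 0.0304) and DESeq2 (adjusted p = 0.000114) on the reads recovered from the table. It was lost without limma's trend (adjusted p = 0.147), without Ctr-KD 1 (0.895) or Ctr-KD 2 (0.36), and, narrowly, without NSD2-1 (0.0518) or NSD2-2 (0.0561), while the log2 difference stayed between 1.39 and 1.80 in limma, edgeR and DESeq2 under every alternative.

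The neighbours of HOXB6 on both sides did not pass. HOXB5, next to it on the side of the low numbers, had 72.4 and 86.4 normalized counts in Ctr-KD cells and 79.1, 123 and 99.6 with NSD2-1, NSD2-2 and NSD2-3. The NSD2-1 value lay between the Ctr-KD values and the other two above them. HOXB5 differed by 0.32 on the log2 scale (limma, standard error 0.21, adjusted p = 0.705). HOXB7, next to it on the other side, had 34.3 and 34.0 in Ctr-KD cells and 35.0, 28.4 and 39.05 in NSD2-KD cells, with the groups overlapping and a log2 difference of -0.01 (standard error 0.22, adjusted p = 0.991 from limma).

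**Figure D3:**
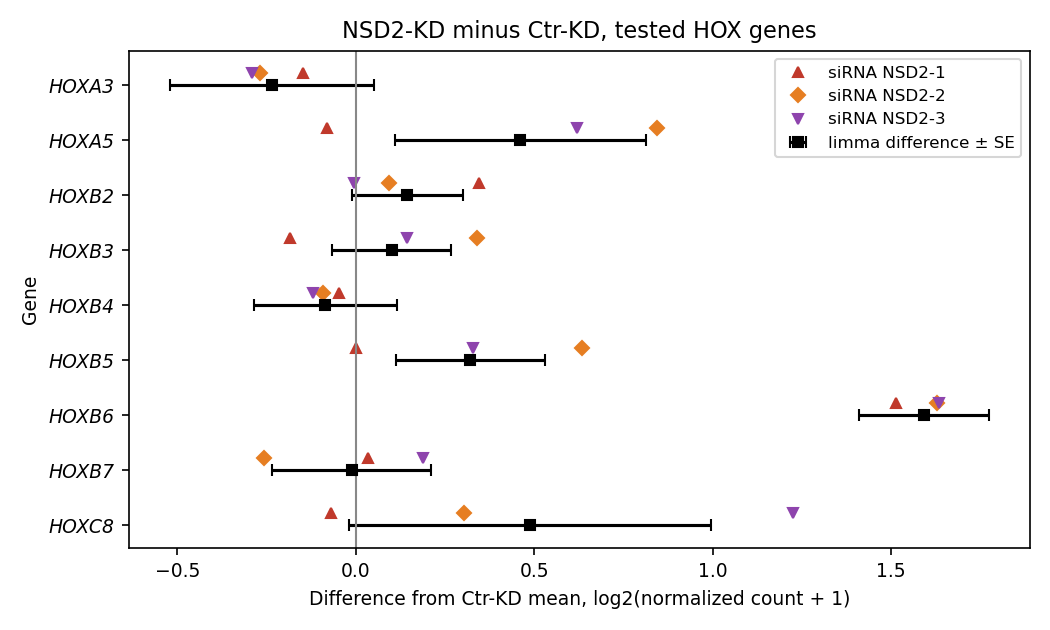
Difference between NSD2-KD and Ctr-KD cells for the 9 tested HOX genes on the log2(normalized count + 1) scale, as the limma estimate with its standard error (black) and as each siRNA library minus the Ctr-KD mean (coloured). HOXB6 stands at 1.59, and the other genes lie between -0.24 and 0.49, with siRNAs on both sides of 0 for HOXA5, HOXB2 (lowest at -0.0043), HOXB3, HOXB7 and HOXC8.

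The starts of the HOX genes were compared with those of all protein-coding genes over windows from 250 bases before to 50 bases after the start of each gene's main transcript, on GRCh37. The motifs were the TATA box (TATAAA), the CCAAT box (CCAAT), the GC box (GGGCGG), a site of HOX proteins with PBX (TGATTGAT or TGATTTAT) and an E2F site (TTTGGCGC or TTTCCCGC). Both strands were searched. A CCAAT box was present in 29 of the 39 HOX windows (74.4%) and in 36.0% of 19881 windows of protein-coding genes, a TATA box in 7 (17.9%) and 9.62%, and a GC box in 18 (46.2%) and 61.4%. The HOX-PBX site was present in 3 HOX windows (7.69%) and in 0.946% of all, and the E2F site in none and in 3.08%. These letters in a window say nothing about binding. The 8 expressed genes had between 10 and 26 CpG in their windows (median 13.5) and the 17 genes with no read between 4 and 44 (median 23.0), against a median of 23.0 over all protein-coding genes.

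The rest of HOXB did not pass the test. HOXB2 had 117 and 110 normalized counts in Ctr-KD cells and 144, 121 and 113 in NSD2-KD cells, a log2 difference of 0.14 (standard error 0.16, adjusted p = 0.833 from limma). HOXB3, with the most reads of the family, had 174 and 179 against 156, 224 and 195, so that NSD2-1 lay below and the other siRNAs above the Ctr-KD libraries, and its log2 difference was 0.10 (standard error 0.17, adjusted p = 0.899). HOXB4 stayed between 33.2 and 38.1 in all libraries, with a log2 difference of -0.09 (standard error 0.20, adjusted p = 0.930). The median of the 6 tested HOXB genes was 0.12. HOXB8, below the minimum for the test, had 15 reads in the Ctr-KD libraries together and 11 in the NSD2-KD libraries together, a ratio of 0.490 after scaling (95% exact counting interval 0.204 to 1.14).

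By the same reads, HOXB6 took a larger share of the HOXB reads. It took 6.65% of them in Ctr-KD 1 (95% Wilson interval 4.78% to 9.20%) and 8.51% in Ctr-KD 2 (6.33% to 11.3%). With NSD2-1 it took 19.0% (16.1% to 22.3%), with NSD2-2 17.6% (14.7% to 20.8%) and with NSD2-3 19.2% (16.3% to 22.6%). The intervals of the groups do not overlap. They cover counting error only. The log2 ratio of HOXB6 to the summed other HOXB genes was 1.49 higher in NSD2-KD cells, and every NSD2-KD library was above both Ctr-KD libraries (exact permutation test, two-sided, p = 0.1, the smallest that 2 against 3 libraries can give). That ratio was chosen after the values had been seen and uses the same reads as the test above, so its p adds no support.

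**Figure D4:**
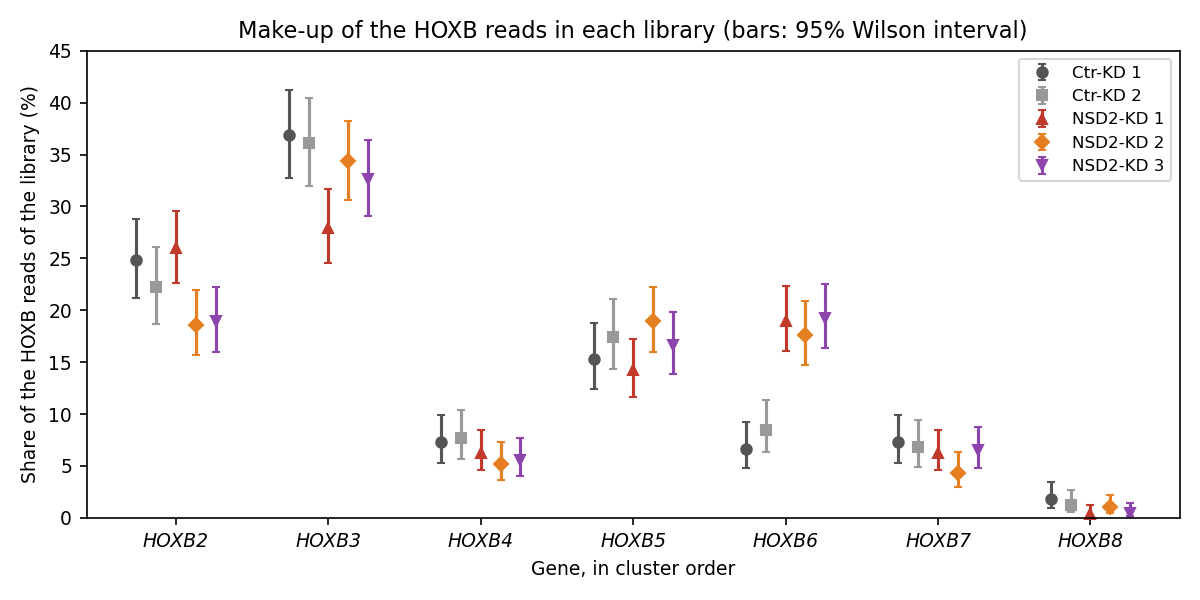
Share of each library's HOXB reads that fell on each gene from HOXB2 to HOXB8, in percent, with 95% Wilson intervals, in cluster order. HOXB6 moves from 6.65% and 8.51% in the Ctr-KD libraries to between 17.6% and 19.2% in the NSD2-KD libraries, and HOXB3 keeps the largest share in every library.

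Summed over the cluster, HOXB had 473 and 496 normalized counts in Ctr-KD cells (484 ± 16.5, SD, n = 2) and 557, 652 and 598 in NSD2-KD cells (602 ± 47.8, SD, n = 3), 1.24 times as many. Without HOXB6 the sums were 441 and 454 against 451, 537 and 483, which overlap, and the ratio was 1.10. Per kilobase, HOXB6 had rank 6 among HOX genes in Ctr-KD cells, at 14.1. In NSD2-KD cells it was at 43.0, with rank 3 after HOXB5 (54.2) and HOXB2 (51.4). Its range there, 40.6 to 44.2, overlapped that of HOXB5 (42.6 to 66.4) and lay below that of HOXB2 (46.1 to 58.8).

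The sums of the other clusters overlapped between the groups. Summed HOXA counts were 43.8 and 43.2 in Ctr-KD cells and 39.6, 49.2 and 42.0 in NSD2-KD cells, a ratio of 1.00. HOXA5 had 13.3 and 10.3 normalized counts against 11.0, 21.8 and 18.5, with NSD2-1 inside the Ctr-KD range (log2 difference 0.46, standard error 0.35, adjusted p = 0.753 from limma). HOXA3 had 13.3 and 13.4 against 11.96, 10.9 and 10.7, so every NSD2-KD library was below both Ctr-KD libraries, as in 13.9% of all tested genes. In reads this was 14 and 13 against 13, 10 and 11, and the log2 difference of -0.24 (standard error 0.29) did not pass (adjusted p = 0.856 from limma). Summed HOXC counts were 17.1 and 27.8 against 27.6, 22.9 and 38.1, a ratio of 1.31. HOXC8 had 4.76 and 12.3 against 7.36, 9.83 and 19.5 (log2 difference 0.49, standard error 0.51, adjusted p = 0.830 from limma). Without Ctr-KD 1 its log2 difference was -0.12, and without Ctr-KD 2 the HOXC ratio was 1.72. HOXC6 lay between 7.65 and 10.1 in all libraries.

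Among the genes with few reads, HOXC4 had 1 and 2 reads in the Ctr-KD libraries and 6, 4 and 5 in the NSD2-KD libraries. It is named after its values were seen. The ratio was 3.34 with a 95% exact counting interval of 0.945 to 18.0, so a difference was not detectable at this depth. HOXC9 had 4 reads in Ctr-KD cells and 1 in NSD2-KD cells together, and HOXA10 had 3 and none. Each HOXD gene stayed at 0 with every siRNA.

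Reads at HOXB6 cannot all be assigned to it with certainty. Of the 2604 bases of its annotated exons, 858 (32.9%) are shared with exons of another gene, 433 with HOXB3 on the same strand and 425 with HOXB-AS3 on the other. The library kit does not mark strand, so reads of a gene and its antisense partner cannot be told apart where they overlap. HOXB-AS3, a long noncoding gene that runs through the cluster, was also higher in each NSD2-KD library, with 28.6 and 32.9 normalized counts in Ctr-KD cells and 47.8, 60.1 and 55.6 in NSD2-KD cells. Every NSD2-KD library was above both Ctr-KD libraries in 13.8% of all tested genes. The log2 difference of HOXB-AS3 was 0.80 (standard error 0.20) and did not pass (adjusted p = 0.267 from limma). Its part in the rise of HOXB6 was not tested. HOXB-AS1, which overlaps HOXB2 and HOXB3, was at 46.7 and 37.04 against 34.0, 50.2 and 42.0 (log2 difference -0.0003, adjusted p = 1.00 from limma). Of 17 noncoding genes listed for the clusters, 15 were in the table, 8 of these were at 0 in all libraries, and 3 were tested (HOXB-AS1, HOXB-AS3 and HOTAIRM1), none past the threshold. HOTAIR and HOTTIP, noncoding genes of HOXC and HOXA, were at 0.

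None of the genes that flank the clusters passed. Of 34 flanking genes, 26 were tested, with 11 higher, 15 lower and a median log2 difference of -0.11. On both sides of HOXB, 7 flanking genes were tested, 3 of them higher and 4 lower (median -0.01), and SKAP1, the next gene beyond HOXB1, was at 0. The groups did not overlap for 5 of the 26 genes, with ATP5G2 and NFE2L2 above and HNRNPA1, ATP5G3 and HNRNPA3 below, against 13.8% above and 13.9% below of all tested genes. None of the 5 flanks HOXA or HOXB. As whole cell populations were sequenced, fewer cells that use a gene and less RNA of it in each cell cannot be told apart.

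HOX proteins bind DNA together with homeodomain proteins of the TALE family, of the PBX, MEIS and PKNOX groups. Of 9 such genes, 6 were tested and none passed, with 3 higher and 3 lower. MEIS1 had 162 ± 6.03 (SD, n = 2) normalized counts in Ctr-KD cells, MEIS3 had 123 ± 5.93 and PKNOX1 had 88.3 ± 8.99. PBX3 was at 48.6 and 56.6 in Ctr-KD cells and at 30.4, 30.6 and 17.6 in NSD2-KD cells. Every NSD2-KD library was lower, as in 13.9% of all tested genes (log2 difference -1.02, standard error 0.28, adjusted p = 0.309 from limma). MEIS2 was at 60.0 and 65.8 against 81.0, 88.5 and 107. Here every NSD2-KD library was higher, as in 13.8% of all tested genes (log2 difference 0.54, standard error 0.18, adjusted p = 0.395 from limma). PBX2 and PBX4 did not pass a Ctr-KD mean of 10, nor did PKNOX2. PBX2 had at most 2.18 normalized counts in any library. As the table was made from uniquely mapped reads, this low level is not read as absence. Whether mapping sets it was not tested.

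**Figure D5:**
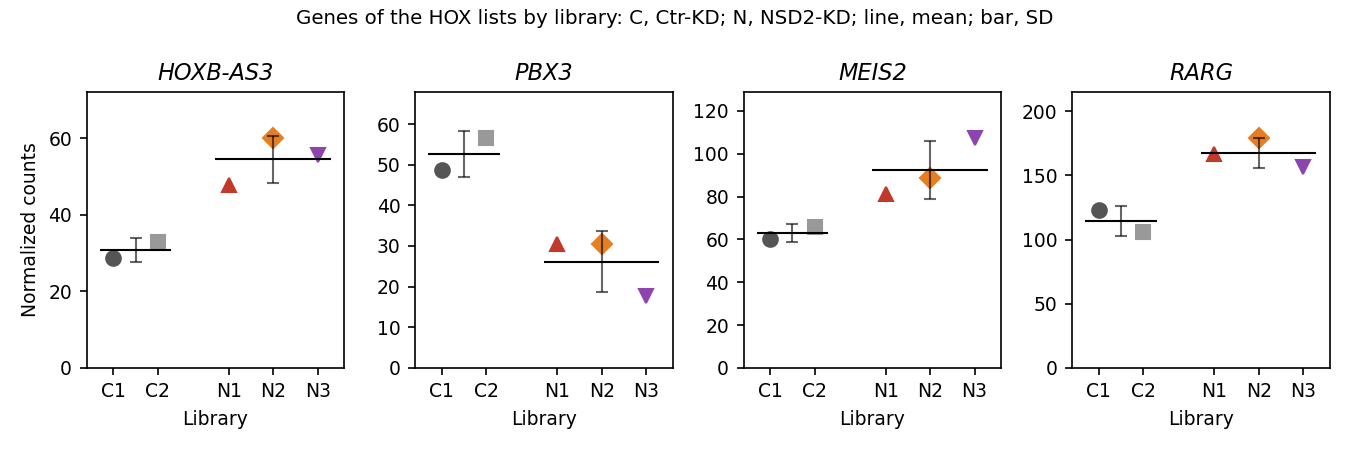
Normalized counts by library of HOXB-AS3, the TALE cofactors PBX3 and MEIS2 and the retinoic acid receptor RARG, with group means as lines and SD as bars. In each panel the NSD2-KD libraries lie on 1 side of both Ctr-KD libraries. Of all tested genes, 13.8% lay above in this way and 13.9% below. None of the genes shown passed the limma threshold (adjusted p = 0.267, 0.309, 0.395 and 0.267).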

How the data were processed

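mRNA-seq of 2 Ctr-KD and 3 NSD2-KD libraries of IMR-90 cells was used, grouped by the sample labels. The authors mapped reads trimmed with Trimmomatic to hg19 with HISAT2, kept unique reads with SAMtools and counted them with featureCounts. The deposited signal is these counts divided by a DESeq2 size factor per library. The annotation and strand setting are not given in the sources used here. In each library 100% of values were whole multiples (within 0.001) of what 1 read is worth, so reads were recovered. The authors' table of DESeq2 fold changes and p-values was not used.

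limma 3.58.1 with a mean-variance trend was run without covariates on log2(normalized count + 1), for the 11313 genes whose mean reached 10. Alternatives were edgeR 4.0.16 and DESeq2 1.42.0 on recovered reads, other pseudocounts, filters and normalizations, a replicate block and leaving out each library. Fits were tested on simulated data. On recovered reads edgeR called 16 genes and DESeq2 55. Exons, lengths, overlaps and promoters came from GENCODE on GRCh37, the assembly of hg19. The members and gene lists were chosen with earlier results of these data known. Values per library are given for members past the threshold, tested members whose groups do not overlap, and the 3 highest per cluster per kilobase. Other genes are named from fixed lists, where their groups do not overlap or they are the highest of a list. Intervals cover counting error only. Some genes and sequences are not reported here.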

Additional observations from a re-analysis of the deposited data

How the results depend on the processing

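HOXB6 kept its direction under all 15 alternatives and its call under 10 of them, the replicate block included (log2 difference 1.49 to 1.65). Without limma's trend it was 1.59 and not called, and leaving out each replicate gave 1.39 to 1.80 with 0 to 1 HOX genes past the threshold. Without the trend 0 HOX genes and 1 gene in all passed, edgeR called 16 genes in all, DESeq2 55 and the replicate block 102, and leaving out each replicate gave 0 to 30. Where a Ctr-KD library was left out, the lone one was assumed to vary like the others, and 0 genes passed, so that NSD2 itself was not called there (log2 difference -2.41 to -2.33 over the libraries left out). The causes were not tested. The replicate numbers of NSD2-KD are those of siRNAs and do not pair libraries. Deviations of libraries with the same number correlated at -0.015 and -0.027. In the replicate block NSD2-3 is alone in its block and adds nothing to the estimate. HOXB6 was thus at 1.57 there, as without NSD2-3. Its call with the block (adjusted p = 0.0137 from limma) rests on an arbitrary pairing and is not counted as support. No other HOX gene was called with the block.

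The other 8 tested HOX genes passed under none of their alternatives (111 values, lowest adjusted p = 0.395). Their directions changed only for HOXB7 (0.059 with quantile normalization, 0.0038 with DESeq2, -0.11 to 0.11 over the libraries left out), HOXB3 (-0.020 to 0.24) and HOXC8 (-0.12 to 1.09). With a minimum of 50 the HOXB median was 0.23, over the 4 genes left. Over members whose exons overlap no other gene, the medians were 0.46 (HOXA, HOXA5 alone), -0.011 (HOXB, HOXB7 alone) and 0.46 (all 3). The HOXC ratio ranged from 1.06 to 1.72 over the libraries left out. A minimum of 50 in Ctr-KD cells left 3 expressed genes of 8, and more than 3 reads in both Ctr-KD libraries gave 12. Genes with a mean under 10 normalized counts over the 5 libraries were not tested in the main fit, and a change in them may have gone unseen.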

Other observations

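Retinoic acid is a known inducer of HOX genes, and few genes of its pathway had enough reads for the test. Of 18 genes listed for it, 7 were listed at 0 in all libraries, among them the synthesis enzymes ALDH1A1 and ALDH1A2 and the receptor RXRB, and 4 passed the minimum for the test (RARA, RARG, RXRA and RDH10), none of them past the threshold. RXRB is used in most cell types and the table was made from uniquely mapped reads, so its 0 is not read as absence. Whether mapping sets it was not tested. The receptor RARG had 123 and 106 normalized counts in the Ctr-KD libraries and 167, 179 and 156 with NSD2-1, NSD2-2 and NSD2-3. Each siRNA thus lay above both controls, as in 13.8% of all tested genes (log2 difference 0.55, standard error 0.14, adjusted p = 0.267 from limma). RARA was at 105 ± 13.9 (SD, n = 2) and 100.6 ± 9.61 (SD, n = 3).

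Transcription factors of the lung mesenchyme are given in normalized counts. These were not divided by gene length, so the genes are not ranked by level. FOXF1, a factor of lung and gut mesenchyme, had 821 ± 42.1 normalized counts with the control siRNA (SD, n = 2) and 899 ± 56.8 with NSD2 siRNAs (SD, n = 3), and TBX2 had 770 ± 43.2 and 856 ± 53.8. TBX5 had 99.6 ± 11.4 (SD, n = 2) in Ctr-KD cells, GLI1 had 9.32 ± 2.99, and TBX4, also known from lung mesenchyme, was at 0 in all libraries. Ctr-KD means of the other 5 genes lay between 70.0 (GLI3) and 378 (TBX3). Of the 10 genes of this list 9 were tested and none passed. FOXF2 (log2 difference 0.44, adjusted p = 0.390 from limma) and TCF21 (0.30, adjusted p = 0.597) were the 2 of these 9 genes with every NSD2-KD library above both Ctr-KD libraries, as in 13.8% of all tested genes.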
